A study of Homo sapiens with 12 samples.

Results

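The germline antigen group consisted of 7 of the 63036 identifiers in the expression table, GTSF1, MAGEB2, MAGEA3, MAGEA4, MAGEA6, MAGEA12 and MAGEC2, found by matching each Ensembl identifier to its symbol. These cancer-testis genes were selected on the TPM of GTSF1 and MAGEB2, high in HCT116 and near 0 in HCT15, so the difference between the lines is given as a description with no test. Messenger RNA was measured in 12 libraries of HCT116 and HCT15, established human colorectal carcinoma lines. Each line was present as control cells (con in the labels) and as cells overexpressing RNF26 (ov_RNF26), a membrane-bound ubiquitin ligase. Every one of the 4 groups had 3 libraries. The labels name neither the vector nor the number of clones, and they do not say that the 3 libraries came from separate cultures, and p-values cover no more than the variation among these libraries, which may be technical. Values are TPM, transcripts per 1000000 transcripts, which adjust for transcript length and keep no sequencing depth.

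Cancer-testis genes are normally active in germ cells, are silent in most adult tissues and are switched on again in some tumours, where their peptides can be presented to T cells. Many lie on the X chromosome, and their silencing in somatic cells depends to a large extent on DNA methylation of the promoter. Type I MAGE proteins, the MAGEA, MAGEB and MAGEC families, bind RING-type ubiquitin ligases and steer them towards targets. GTSF1 is a small zinc-finger protein of germ cells that assists PIWI proteins, which use piRNAs to silence transposons.

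GTSF1 is an autosomal gene at chr12:54455950-54473602 on the minus strand (GRCh38, GENCODE), and the other 6 members are on the X chromosome. MAGEB2 lies at chrX:30215560-30220089 on the plus strand. MAGEA3, at chrX:152698752-152702347 on the plus strand, MAGEA12, at chrX:152733779-152737669 on the plus strand, and MAGEA6, at chrX:152766136-152769747 on the minus strand, share one Xq28 cluster. MAGEA4 is at chrX:151912509-151925170 on the plus strand and MAGEC2 at chrX:142202345-142205290 on the minus strand.

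The promoter sequences of an abundant autosomal member, both abundant X-linked members and a nearly silent one are printed first, because the levels described below differ between genes with similar promoters. They are RefSeq sequences of GRCh38.p14, 5′ to 3′ on the strand of the gene, and end where the annotated GENCODE gene or the RefSeq transcript starts. Capitals mark 3 short motifs that were picked after these sequences had been read, each searched on both strands: CCGGAAGT, a core of the kind bound by ETS-family factors, GGATGTGA, and TGACTTGCGC. The marked stretches do not overlap. The intervals are chr12:54473603-54473852 (minus strand) for GTSF1, chrX:30215313-30215559 (plus strand) for MAGEB2, chrX:152698544-152698751 (plus strand) for MAGEA3 and chrX:152733507-152733756 (plus strand) for MAGEA12.
GTSF1: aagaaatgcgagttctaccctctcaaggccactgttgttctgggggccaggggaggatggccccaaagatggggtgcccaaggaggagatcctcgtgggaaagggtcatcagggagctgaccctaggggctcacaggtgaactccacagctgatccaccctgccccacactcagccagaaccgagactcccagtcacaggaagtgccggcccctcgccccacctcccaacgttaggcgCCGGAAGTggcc
MAGEB2: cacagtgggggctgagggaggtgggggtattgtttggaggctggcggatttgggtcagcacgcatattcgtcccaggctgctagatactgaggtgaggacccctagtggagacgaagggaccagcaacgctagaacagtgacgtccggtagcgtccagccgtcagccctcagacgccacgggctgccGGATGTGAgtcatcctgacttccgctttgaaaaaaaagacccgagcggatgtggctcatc
MAGEA3: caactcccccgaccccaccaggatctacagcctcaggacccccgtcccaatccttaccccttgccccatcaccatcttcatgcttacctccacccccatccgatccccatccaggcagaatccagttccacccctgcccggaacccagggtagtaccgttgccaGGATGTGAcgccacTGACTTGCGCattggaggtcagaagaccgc
MAGEA12: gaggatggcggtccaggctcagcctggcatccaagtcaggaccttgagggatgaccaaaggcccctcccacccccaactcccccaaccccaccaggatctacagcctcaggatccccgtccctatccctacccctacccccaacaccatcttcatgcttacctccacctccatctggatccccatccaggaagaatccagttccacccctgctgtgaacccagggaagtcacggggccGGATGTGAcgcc

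All 7 members had at least 1 RefSeq window of 300 bases, reaching from 250 before to 50 after a transcript start. The MAGEA6 window differed from the MAGEA3 window at 0 of 300 bases, so the MAGEA3 line above also stands for MAGEA6. GGATGTGA was in windows of MAGEB2, MAGEA3, MAGEA4, MAGEA6 and MAGEA12, against 1.16% of 35116 windows of all genes. TGACTTGCGC was in windows of MAGEA3, MAGEA4, MAGEA6 and MAGEA12, and not in the window of MAGEB2. MAGEA12 has windows for 2 starts, and in that of the start printed above the motif lies within the 50 bases after it. It was rare, with 21 of all windows (0.0598%), and 16 of these belonged to MAGEA or CSAG genes. CCGGAAGT was in the GTSF1 window and in 4.14% of all windows, and the MAGEC2 window held none of the 3 motifs. The windows held 19 CpG sites in MAGEA3 and MAGEA6, 21 in MAGEB2, 10 in GTSF1 and 10 in MAGEC2, against a median of 14 over all windows. Windows of MAGEA12 held 9 or 15 CpG sites and those of MAGEA4 between 10 and 15. A motif match is a description of letters and shows no binding. Both motifs of the MAGEA3 window were thus also in windows of MAGEA4 and MAGEA12, which were nearly silent in HCT116. In CpG number the 3 MAGE members detected at over 1 TPM in HCT116, with 19, 19 and 21, lay above the 3 nearly silent ones, with 9 to 15. GTSF1, with 10, did not. The values of 19 belong to the same sequence, which went with 94.8 TPM for MAGEA3 and 2.18 TPM for MAGEA6 in HCT116 control cells. MAGEA2, which is no member, averaged 38.2 TPM there and had windows with 13 and 17 CpG sites. No link between CpG number and level is read from these windows.

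GTSF1 was the most abundant member in HCT116. Its level in the HCT116 control libraries was 295.49, 288.94 and 290.53 TPM, and in the HCT116 RNF26 libraries 294.82, 283.42 and 295.42 TPM. In HCT15 it was listed at 0 in 5 of 6 libraries and at 0.37 TPM in control library 3. The lines did not overlap, and within HCT116 the arms did. GTSF1 held rank 389 among all genes by mean TPM in HCT116 control cells.

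MAGEB2, a MAGE protein of germ cells described as lowering the production of the stress granule protein G3BP1, was the next most abundant. It stood at 142.97, 136.61 and 135.51 TPM in HCT116 control libraries and at 137.24, 129.72 and 133.69 TPM in HCT116 RNF26 libraries. In HCT15 its only value above 0 was 0.04 TPM, in control library 2. The arms of HCT116 overlapped again.

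MAGEA3, which with MAGEA6 forms a ligase with TRIM28, followed. Its control values in HCT116 were 95.24, 100.41 and 88.87 TPM and its RNF26 values 93.39, 104.29 and 94.50 TPM. In HCT15 it was at 0.10 TPM in control library 1 and at 0 in the other 5. MAGEA6 was far lower, at 2.71, 1.67 and 2.16 TPM in HCT116 control libraries and at 1.68, 2.00 and 1.76 TPM in HCT116 RNF26 libraries, and was listed at 0 in all 6 HCT15 libraries. In such bulk RNA, few cells with much of a transcript and many cells with little of it cannot be told apart.

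The name of the group did not hold for 3 members. MAGEA12 did not exceed 0.09 TPM in any HCT116 library, and MAGEC2, whose protein also binds TRIM28, was above 0 in 1 library, HCT116 control library 2, at 0.06 TPM. MAGEA4, a partner of the ligase RAD18, was listed at 0 in all 6 HCT116 libraries and reached at most 0.04 TPM in HCT15. Expression in HCT116 was thus a property of GTSF1, MAGEB2 and MAGEA3. MAGEA6 was listed at a low level, which is uncertain because its transcript is nearly identical to that of MAGEA3, as described below.

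Within each HCT116 arm the order was GTSF1, MAGEB2, MAGEA3, MAGEA6 and then the other 3 genes. The ranges of neighbouring genes among the first 4 did not overlap in either arm. MAGEA6 did not overlap MAGEA12, whereas MAGEA12, MAGEC2 and MAGEA4 could not be ordered beyond their spread. In HCT15 all 7 genes overlapped at or near 0.

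**Figure D1:**
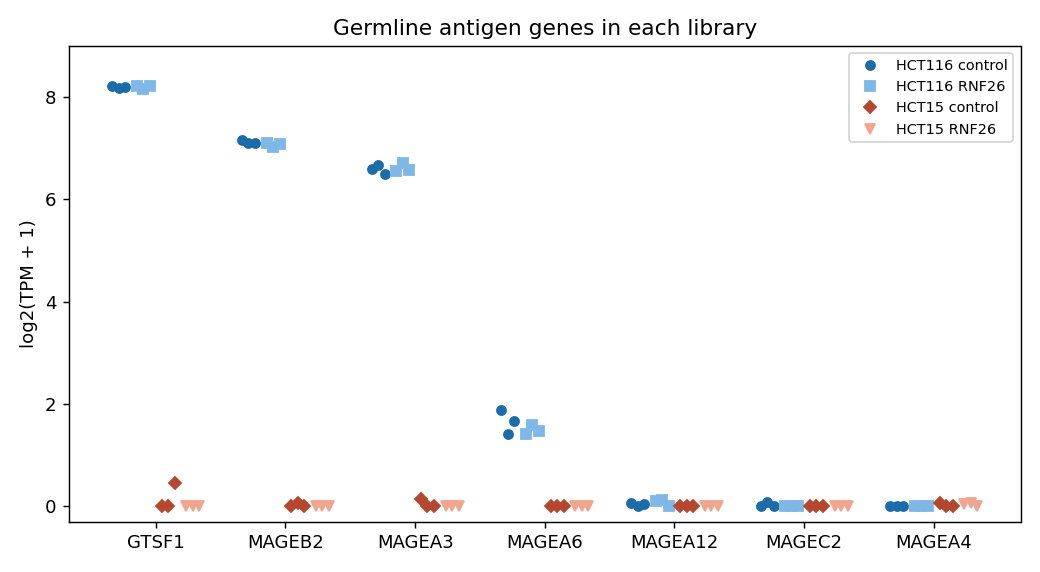
Level of the 7 members in each of the 12 libraries, as log2(TPM + 1) on the vertical axis, with 1 point per library and 1 colour and shape per group (con and ov_RNF26 of each line). GTSF1, MAGEB2 and MAGEA3 lie high in both HCT116 arms and MAGEA6 lies between them and 0, while every HCT15 value is at most 0.37 TPM.

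The spread between HCT116 libraries differed among the abundant members. Over the 6 HCT116 libraries of both arms, GTSF1 averaged 291 TPM with a coefficient of variation of 1.65%. Of 2134 genes with a mean of at least 50 TPM in these libraries, 28 varied less, and their median coefficient was 5.18%. MAGEB2 averaged 136 TPM with a coefficient of 3.21%, and 344 of these genes varied less. MAGEA3 averaged 96.1 TPM with a coefficient of 5.67%, close to that median, and 1239 varied less. MAGEA6 averaged 2.00 TPM and ranged from 1.67 to 2.71 TPM. By this coefficient GTSF1 was among the steadiest of these 2134 genes, which were not matched to it for level. Among GTSF1, MAGEB2 and MAGEA3 the coefficient was lower where the level was higher, so a trait of GTSF1 apart from its level is not read from it.

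RNF26 overexpression left no called change in these genes. RNF26 itself was 16.8 ± 1.44 TPM (SD, n = 3) in HCT116 control and 296 ± 39.4 TPM (SD, n = 3) in HCT116 RNF26 libraries, and 27.0 ± 0.762 and 54.2 ± 0.562 TPM (SD, n = 3 each) in HCT15. Both lines carried the labelled overexpression, and the rise was smaller in HCT15. The 15584 genes with at least 1 TPM in at least 3 libraries were tested with limma on log2(TPM + 1). Of the 7 members 4 passed this filter, all through their HCT116 values. In HCT116, 0 of these 4 were called at an adjusted p under 0.05. Of all tested genes 0.00642% were called there, 1 gene, which was RNF26 itself, higher by 4.05 on the log2 scale. At an unadjusted p under 0.05 the count was also 0 of 4, against 657 of all tested genes.

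The change of GTSF1 in HCT116 was -0.002 on the log2 scale (SE 0.106, 95% interval -0.24 to 0.23, limma adjusted p = 1.00). MAGEB2 changed by -0.05 (SE 0.0624, 95% interval -0.19 to 0.09, limma adjusted p = 1.00). For MAGEA3 the value was 0.04 (SE 0.0789, 95% interval -0.14 to 0.21) and for MAGEA6 -0.17 (SE 0.127, 95% interval -0.44 to 0.11), both with a limma adjusted p of 1.00. Two-sided exact permutation tests of the TPM values gave p = 0.8 for GTSF1, 0.3 for MAGEB2, 0.7 for MAGEA3 and 0.4 for MAGEA6, where 3 libraries against 3 cannot go below 0.1. These errors pool the spread of all 4 groups, HCT15 included, where GTSF1 had 1 value above 0. In a fit of the 2 HCT116 arms alone the SE was 0.027 for GTSF1 (95% interval -0.07 to 0.06), 0.0352 for MAGEB2 (-0.14 to 0.04), 0.0634 for MAGEA3 (-0.12 to 0.19) and 0.138 for MAGEA6 (-0.51 to 0.18). There the GTSF1 interval was the narrowest of the 4 and the MAGEA6 interval the widest, and 0 of 4 were called. The signs for GTSF1 and MAGEA3 turned when single libraries were left out (GTSF1 0.0171 and MAGEA3 -0.0118 without RNF26 library 2), with no call in any of these fits. In none of the 4 genes did the arms separate without overlap, as they did in 12.8% of tested genes.

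**Figure D2:**
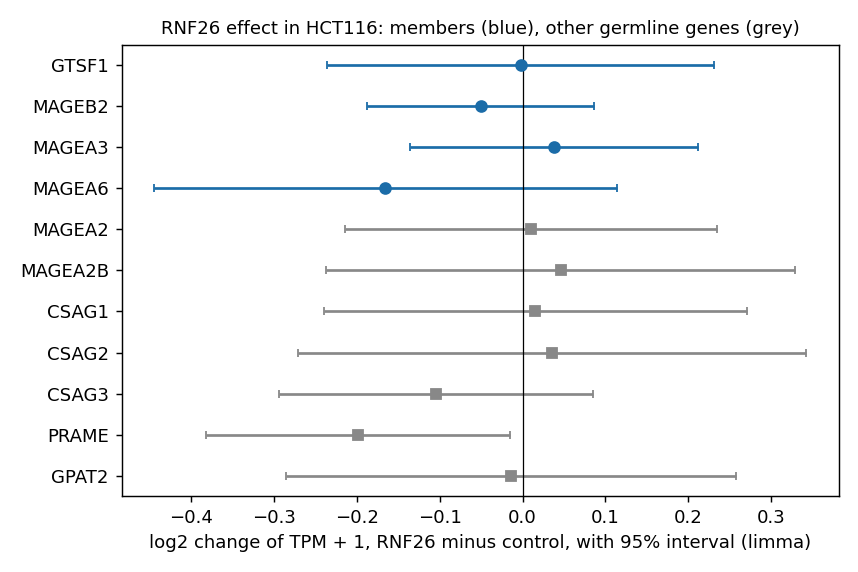
Change with RNF26 in HCT116, ov_RNF26 minus con, as the log2 difference of TPM + 1 on the horizontal axis with 95% intervals from limma (spread pooled over all 4 groups), for the 4 tested members (blue circles) and 7 other germline genes (grey squares). The intervals of all 4 members include 0, and the interval of MAGEA6 is the widest of the 4.

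In HCT15 the members could not show a fall, since their control values were at or near 0, and they showed no rise. Of all tested genes 36.6% were called in HCT15, 5.39% higher and 31.2% lower, and 20.5% were called for the difference between the 2 RNF26 effects. The 4 tested members had 0 calls in both, which is not read against these shares, because the members entered through HCT116 and had no HCT15 level that could fall. No member appeared in HCT15 with RNF26: the highest value there was 0.04 TPM, for MAGEA4.

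The Xq28 cluster that holds MAGEA3, MAGEA12 and MAGEA6 is an inverted repeat. Along the chromosome its expressed pairs run MAGEA3, CSAG2 and MAGEA2B on one side and MAGEA2, CSAG3 and MAGEA6 in mirror order on the other, with CSAG1 and MAGEA12 between them. CSAG genes are cancer-testis genes that lie beside MAGEA genes. In HCT116 control cells the means in chromosomal order were 94.8 ± 5.78 TPM for MAGEA3, 7.03 ± 1.25 for CSAG2, 78.1 ± 13.0 for MAGEA2B, 1.76 ± 0.142 for CSAG1, 0.027 ± 0.025 for MAGEA12, 38.2 ± 4.27 for MAGEA2, 54.0 ± 6.16 for CSAG3 and 2.18 ± 0.520 for MAGEA6 (SD, n = 3 each). The silent MAGEA12 therefore sat between expressed genes, and its neighbour CSAG1, which starts within 50 bases of it on the opposite strand, was low but detected. None of the 5 MAGEA2 and CSAG genes changed with RNF26 in HCT116 by the limma test. In HCT15 control cells MAGEA2B averaged 0.06 TPM and the 4 others were listed at 0.

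**Figure D3:**
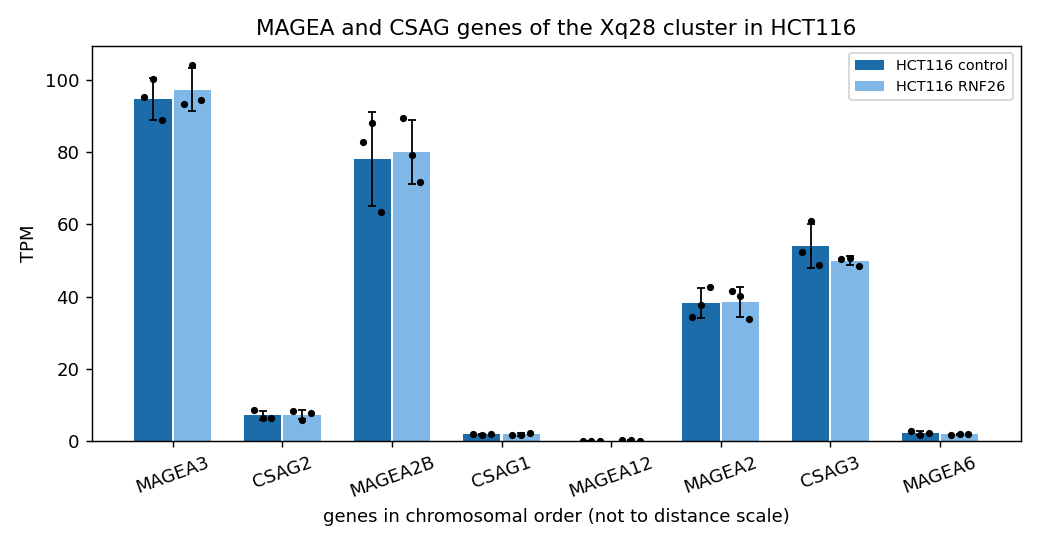
Mean TPM (bars, axis from 0) of 8 MAGEA and CSAG genes of the Xq28 cluster in HCT116 control and RNF26 cells, in chromosomal order, with the SD as error bar (n = 3) and each library as a point. MAGEA3 and its mirror copy MAGEA6 stand at opposite ends with 94.8 and 2.18 TPM in control cells, and MAGEA12 in the middle is near 0.

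How reads were shared among these copies bears on MAGEA3 and MAGEA6. A MAGEA3 and a MAGEA6 transcript of GENCODE, each of 1762 bases, differed at 25 positions (98.6% identity), and 450 of the 1613 stretches of 150 bases in one, 27.9%, occurred unchanged in the other. Of the 25 differences, 18 fell in the coding part of 942 bases. The stretch with 4 of them in 61 bases, coding bases 572 to 632, at chrX:152701404-152701464 in MAGEA3 (GRCh38, exonic), shows how reads can tell the copies apart, with the differing bases in capitals.
MAGEA3: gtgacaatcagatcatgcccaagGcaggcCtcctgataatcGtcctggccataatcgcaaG
MAGEA6: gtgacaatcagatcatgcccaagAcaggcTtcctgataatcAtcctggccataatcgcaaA

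MAGEA6 made up 1.64% to 2.77% of the summed MAGEA3 and MAGEA6 level over the 6 HCT116 libraries. Reads of 150 bases from most of the transcript can be assigned to one of the copies, but how shared reads were divided between them is not stated, and the MAGEA6 level is uncertain. The sum of both genes averaged 97.0 ± 5.58 TPM in HCT116 control and 99.2 ± 6.16 TPM in HCT116 RNF26 cells (SD, n = 3 each), and these ranges overlapped. The MAGEA2 pair is a stricter case, with 0 mismatches over 1946 aligned bases. MAGEA2 took 29.3% to 40.3% of its pair, and only the pair's sum, 105.6 to 131.09 TPM, can be read. CSAG2 and CSAG3 differed at 1 of 844 bases, and CSAG2 took 9.28% to 14.2% of their sum. MAGEA12 was 91.2% identical to MAGEA3 and shared none of its stretches of 150 bases, so shared reads of that length do not link its value to MAGEA3.

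Genes next to GTSF1 and MAGEB2 did not share their levels. Of the 3 protein-coding neighbours on each side of GTSF1, ITGA5, an integrin subunit, stood at 17.0 TPM in HCT116 and 8.50 TPM in HCT15 control cells, and ZNF385A at 4.50 and 1.11 TPM. The other 4, GPR84, NCKAP1L, PDE1B and PPP1R1A, were below 1 TPM in every group. Around MAGEB2, 3 of the 6 neighbours, MAGEB4, MAGEB10 and DCAF8L1, were listed at 0 in all libraries. MAGEB1 averaged 0.63 TPM, MAGEB3 0.11 TPM and IL1RAPL1 0.36 TPM in HCT116 control cells, and all 3 were at 0 in HCT15. None of the 6 neighbours exceeded 1.01 TPM in a library. The antisense genes annotated over GTSF1 and MAGEA4 were listed at 0 in all groups.

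Of 20 other type I MAGE genes, 2, MAGEA2 and MAGEA2B, reached a mean of 1 TPM in HCT116 control cells, and 12 were listed at 0 in all 3 libraries. Of 51 other X-linked cancer-testis genes, 3 reached 1 TPM there, all of them CSAG genes. Of 44 autosomal germline genes, 11 reached 1 TPM there and 13 in HCT15 control cells. The most abundant in HCT116 were ATAD2 (87.0 TPM), KIF2C (84.4 TPM) and PBK (81.7 TPM), which dividing somatic cells also express and which stood at 51.5, 91.4 and 74.8 TPM in HCT15 control cells. PRAME, an autosomal cancer-testis antigen, was at 28.79, 27.20 and 30.00 TPM in HCT116 control and 25.35, 24.89 and 24.28 TPM in HCT116 RNF26 libraries. Those arms did not overlap, but the change of PRAME, -0.20 (SE 0.0835), had an unadjusted p of 0.0367 and a limma adjusted p of 1.00. PRAME averaged 0.26 TPM in HCT15 control cells, the direction of GTSF1. Other autosomal germline genes went the opposite way, among them SYCE2, of the synaptonemal complex, with 0.43 TPM in HCT116 and 5.70 TPM in HCT15 control cells, and CABYR, a sperm tail protein, higher in HCT15 by 2.27 on the log2 scale. Of the 15 tested genes of this list, 5 were higher and 5 lower in HCT15 than in HCT116 control cells by limma. Of all tested genes 43.6% were higher and 26.0% lower, and nothing particular to the list is read from its counts. With RNF26, 0 of the 15 were called in HCT116. In HCT15, 1 was higher and 3 lower, beside 5.39% and 31.2% of all tested genes, and 3 and 0 after median-ratio scaling. LEMD1 of this list was low, and its arms overlapped in neither line. It ranged from 0.39 to 0.86 TPM in HCT116 control and 1.29 to 1.63 TPM in HCT116 RNF26 libraries. The HCT15 ranges were 0.12 to 0.22 and 0.75 to 1.59 TPM.

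A pattern of at least 5 TPM in every HCT116 library and under 0.5 TPM in every HCT15 library was found for 133 genes, 0.853% of those tested. GTSF1, MAGEB2 and MAGEA3 were among them, which follows from how the members were chosen, and GTSF1 was second of the 133 by mean HCT116 level. The reverse pattern was found for 90 genes. Over the 12 libraries, the log2 levels of BNIP3, a mitophagy receptor, followed GTSF1 most closely (Pearson r = 0.9997), followed by CALD1, ELOVL5, RTL8C and ANO6. RTL8C, a retrotransposon-derived gene of the X chromosome, followed MAGEB2 most closely (Pearson r = 0.9999), and ANO6, MSN and VCAN were also close. Of 9942 genes compared, 296 exceeded r = 0.99 with GTSF1 and 298 with MAGEB2. All 12 points share the difference between the lines, with 6 libraries on each side, and the correlations are given as descriptions.

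Where GTSF1 was high, mRNA of its PIWI partners was near 0. PIWIL1 was listed at 0 in all 12 libraries, and PIWIL2, PIWIL3 and PIWIL4 did not exceed 0.46, 0.06 and 0.87 TPM in any library. HENMT1, which methylates the 3′ end of piRNAs, was listed at 0 in all HCT116 libraries and averaged 20.3 ± 1.51 TPM (SD, n = 3) in HCT15 control cells, the opposite direction to GTSF1. GPAT2, an acyltransferase of the mitochondrial membrane used in piRNA production, followed the direction of GTSF1, with 13.0 ± 0.950 TPM in HCT116 control cells (SD, n = 3) and at most 0.05 TPM in HCT15 libraries. Of 11 tested genes of the piRNA pathway, 5 were higher and 5 lower in HCT15 than in HCT116 control cells by limma, against 69.5% of all tested genes called, 43.6% higher and 26.0% lower. With RNF26, 0 of the 11 were called in HCT116, where RNF26 was the only gene called. In HCT15 4 were lower and 0 higher, beside 31.2% and 5.39% of all tested genes. After median-ratio scaling 2 were lower and 2 higher, beside 2600 and 2242 of all 15584 tested genes. Nothing particular to the list is read from these counts. Lower in HCT15 under each alternative were MOV10, an RNA helicase (36.4 to 23.3 TPM), and TDRKH, which anchors PIWI proteins at mitochondria (9.37 to 6.13 TPM).

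Markers of germ cells were near 0 beside these antigens. None of 18 germ cell markers reached a mean of 1 TPM in HCT116, their summed level was 0.93 to 1.78 TPM per HCT116 library, and DDX4 and DAZL, which define germ cells, did not exceed 0.16 and 0.05 TPM. Between 7 and 8 of the 18 were at 0 in an HCT116 arm. The summed germ cell markers in HCT15, 1.94 to 3.15 TPM, were no lower than in HCT116. Of 14 colon epithelium markers, 8 reached a mean of 1 TPM in HCT116 control and 9 in HCT15 control cells. EPCAM and KRT8 were at 198 and 1534 TPM in HCT116 control cells. CDX1, CEACAM5, LGALS4, CDH17 and GPA33 did not exceed 0.2 TPM in any HCT116 library. CDH1 was at 9.33, 6.22 and 5.37 TPM in HCT116 and 73.78, 71.89 and 74.03 TPM in HCT15 control libraries. VIL1, a brush-border marker of intestinal cells, was at 0.46 TPM in HCT116 and 81.7 TPM in HCT15 control cells.

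Genes that keep germline promoters silent and genes whose products bind MAGE proteins were examined as lists chosen with earlier results known. In HCT116, where GTSF1, MAGEB2 and MAGEA3 were high, 0 of 18 DNA methylation genes and 0 of 29 repressors were called with RNF26. Of 27 MAGE partners and targets 0 were called. Only RNF26 was called of all 15584 tested genes, so a list without it could hold no call, and nothing is read from these counts. In each list 1 gene had an unadjusted limma p under 0.05, beside 657 of all tested genes. Between control lines, DNMT1, the maintenance methyltransferase, averaged 48.4 TPM in HCT116 and 38.0 TPM in HCT15, and its partner UHRF1 49.8 and 23.7 TPM. DNMT3A was at 1.54 and 2.73 TPM and DNMT3B at 10.1 and 5.18 TPM. Thus DNMT1, UHRF1 and DNMT3B, by limma, were lower in HCT15, where GTSF1, MAGEB2 and MAGEA3 were near 0, and DNMT3A was higher there (limma adjusted p = 0.0171, 1.36e-05, 5.22e-05 and 0.00252 in this order). The call of DNMT1 was lost without HCT116 control library 2 or HCT15 control library 1 or 2, with a limma adjusted p of up to 0.0573. Of the 18 methylation genes 10 were higher and 4 lower in HCT15, beside 43.6% and 26.0% of all tested genes. After quantile normalization the counts were 6 and 6. The median difference between control lines over all tested genes was 0.22 and fell to 0.02 with that normalization, with 62.7% and 51.1% of all calls higher in HCT15.

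In HCT15 with RNF26, 10 of 18 methylation genes, 12 of 29 repressors and 10 of 27 MAGE partners were lower, beside 31.2% of all tested genes, and 0, 2 and 0 were higher, beside 5.39%. The counts of repressors and partners lay near that share. The count of methylation genes lay above it, but went from 10 to 4 with the median-ratio scaling given below. Nothing particular to any of these lists is read from the counts. HCT15 control libraries held DNMT1 at 36.01, 35.63 and 42.39 TPM, and with RNF26 it was at 16.59, 18.69 and 21.13 TPM, with no overlap. It fell by 0.98 on the log2 scale (SE 0.113, limma adjusted p = 0.000122). UHRF1 fell from 23.7 to 12.4 TPM, EHMT2, a histone methyltransferase, from 40.5 to 22.8 TPM, and DDB1, an adaptor of cullin ligases, from 113 to 62.4 TPM. The median change of all tested genes in HCT15 was -0.17, against -0.36 for the methylation list, -0.34 for the repressors and -0.23 for the partners. After median-ratio scaling, which brings that median to 0, the lower calls were 4, 8 and 6 and the higher calls 1, 6 and 5, whereas DNMT1, UHRF1, EHMT2 and DDB1 were called lower under each alternative. Without HCT15 control library 3 the lower calls were 8, 11 and 8 and the higher calls 0, 1 and 0. Of all calls in HCT15, 14.7% were higher as deposited, 46.3% after median-ratio scaling and 47.7% after quantile normalization. The 7 germline antigen genes were at or below 0.04 TPM in the HCT15 RNF26 libraries, and whether this is related to the falls was not tested.

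TRIM28, the ligase that MAGEA3, MAGEA6 and MAGEC2 bind, averaged 325 ± 21.4 TPM in HCT116 control and 276 ± 36.05 TPM in HCT116 RNF26 cells (SD, n = 3 each). The arms did not overlap, but the change was not called. In HCT15 it fell from 131 to 83.2 TPM (limma adjusted p = 0.0012). G3BP1, tied to MAGEB2, averaged 274 TPM in HCT116 and 111 TPM in HCT15 control cells and was not called with RNF26 in either line. Genes of HLA class I presentation, through which peptides of these antigens reach T cells, were higher in HCT15 control cells for 17 of 20 and lower for 2, beside the 43.6% and 26.0% of all tested genes, and higher for 13 and lower for 3 after median-ratio scaling. PSMB8, a subunit of the immunoproteasome, averaged 0.10 TPM in HCT116 and 54.0 TPM in HCT15 control cells. HCT116 therefore had the lower PSMB8 mRNA, but the immunoproteasome subunits did not all go this way. PSMB9 was at 6.21, 5.55 and 5.89 TPM in HCT116 and 29.07, 36.83 and 19.26 TPM in HCT15 control libraries. PSMB10 went the opposite way, at 53.05, 61.53 and 58.28 TPM in HCT116 and 17.12, 25.80 and 15.86 TPM in HCT15 control libraries.

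**Figure D4:**
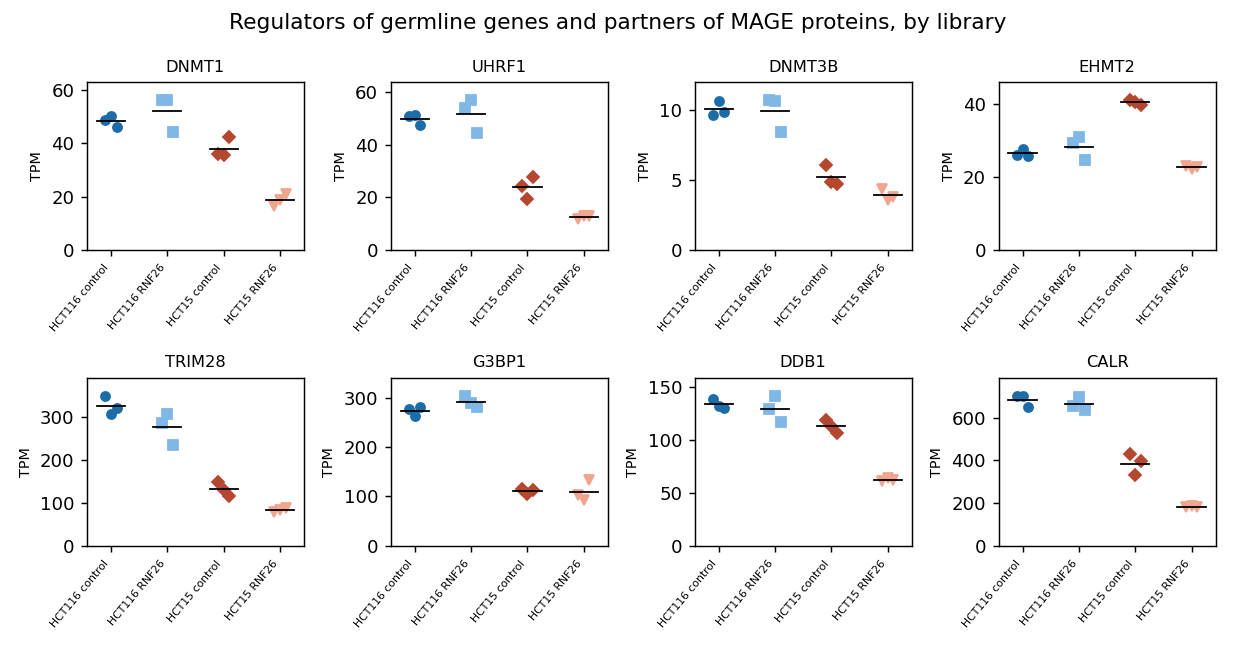
TPM per library (points, axes from 0) with group means (lines) for 8 genes that regulate germline promoters, bind MAGE proteins or load HLA class I, in control (con) and RNF26 (ov_RNF26) cells of HCT116 and HCT15. DNMT1, UHRF1, EHMT2, TRIM28, DDB1 and CALR are lower with RNF26 in HCT15. The arms of HCT116 overlap for DNMT1, with 46.09 to 50.31 against 44.34 to 56.12 TPM. They do not overlap for TRIM28, with 306.08 to 348.36 against 235.55 to 305.45 TPM, a change that was not called.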

How the data were processed

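Expression of 12 libraries was deposited by the authors as TPM with 2 decimals. Per the labels' protocols, poly(A) RNA was made into stranded libraries and sequenced in pairs of 150 bases. The tools fastp, HISAT2, StringTie and RSEM and the build GRCh38 appear in the submitters' processing notes. Neither versions nor roles were stated in the sources used here. Depth is unknown and no counting interval is given. Between 13582 and 14135 genes reached 1 TPM in a library, and each pair of libraries differed in at least 24770 genes. Of the identifiers, 42300 were matched to a symbol.

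log2(TPM + 1) was tested in R 4.3.3 with limma 3.58.1, two-sided, in 1 fit of 4 group means with a mean-variance trend, and Benjamini-Hochberg adjustment over all 15584 genes. On this scale changes of low genes are understated. The fit was tested on simulated data. Members, lists, motifs and tests were chosen with earlier results of these data known. Named genes were all members and RNF26, of each list up to 4 genes by level and up to 4 by p, PIWI and DNMT genes, type I MAGE genes of 1 TPM or more, 3 neighbours on each side and 5 most alike genes, of which a few are not reported here. Alternatives were other pseudocounts, filters, scalings, variance models, separate fits, a replicate block and leaving out each library.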

Additional observations from a re-analysis of the deposited data

Results flagged for a closer look

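The effect of RNF26 differed between the lines, by limma's test of the difference adjusted over all tested genes, for 19 of 28 named genes tested, and all 19 differences (HCT15 minus HCT116, log2) were negative. Over all tested genes 20.5% were called for this difference. Apart from RNF26, the 28 genes were picked from the lists by a call and a small limma p in HCT15. That contrast is part of the difference, and list calls in HCT15 were 46 lower and 5 higher. For the list genes, the share called and the negative sign therefore follow largely from that choice and are no separate result. For RNF26 itself the difference was -3.07. Among genes of DNA methylation it was -1.08 for DNMT1, -0.912 for UHRF1, -0.505 for CDCA7, which recruits a remodeller of methylated chromatin, and -0.726 for the demethylating enzyme TET3. Among repressors and chromatin genes it was -0.89 for EHMT2, -0.49 for TFDP1, -0.64 for SUV39H1 and -0.6 for WDR5. Among MAGE partners it was -0.788 for DDB1, -0.693 for HUWE1 and -0.713 for USP7. In the HLA class I loading machinery it was -1.02 for CALR, -0.821 for TAPBP and -0.381 for PDIA3. The values were -0.436 for TDRKH and -0.654 for MOV10 of the piRNA list, -0.579 for the type II gene MAGED1 and -0.262 for KIF2C. Under at least 1 alternative 9 of the 19 lost this call, and 0 changed sign. The median difference over all tested genes was -0.18, so part of each value is shared by most genes.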

How the results depend on the processing

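The count of called members stayed at 0 in HCT116, in HCT15 and for the difference under all 22 alternatives (21 for the difference, which cannot be fitted in separate lines). The tested members were at or near 0 in every HCT15 library. The count in HCT15 could therefore hardly move under any setting, and that for the difference mostly repeats HCT116. Neither is read as support. The change of GTSF1 in HCT116 ranged from -0.0128 to 0.0171 when 1 library was left out, and reversed to 0.00710 without control replicate 1 and 0.0171 without RNF26 replicate 2. That of MAGEA3 ranged from -0.0118 to 0.0796 and reversed to -0.00757 without control replicate 3 and -0.0118 without RNF26 replicate 2. Calls in HCT15 over all 9 lists were 5 higher and 46 lower. Median-ratio scaling gave 24 and 23, quantile normalization 25 and 24, and the compared groups alone gave 1 higher. Leaving out single libraries gave 2 to 7 higher and 36 to 47 lower. The cause was not tested. The labels do not say whether replicate numbers pair the samples. Deviations of same-numbered libraries correlated at -0.031, -0.042 and -0.025 in HCT116 and at 0.009, 0.014 and 0.146 in HCT15. Those of different-numbered libraries ranged from -0.026 to 0.055 in HCT116 and from -0.124 to 0.113 in HCT15. Such small correlations do not settle whether libraries were paired. With the replicate block the count of called members was again 0, and the list calls in HCT15 were 5 higher and 45 lower. MAGEA6 was not tested with the filter of 5 TPM. Depth is unknown, so a listed 0 bounds no level.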
